A study of Mus musculus with 7 samples.

Results

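The 9 genes described here are Dlx1, Dlx2, Dlx5, Dlx6, Lhx6, Isl1, Nkx2-1, Hmx2 and Hmx3, transcription factors of the embryonic forebrain by which preoptic and GABAergic neurons are often classified. They were chosen by symbol, and all 9 were found among the 24062 gene symbols of the count tables. The samples came from ERα-ZsGreen mice, in which a green fluorescent reporter marks cells that use the Esr1 promoter (label: Esr1-ZsGreen, ZsGreen positive). The mice, described as female, were 10 to 14 weeks old, and neurons of the medial preoptic area (MPA) were recorded in brain slices while the bath was warmed by 5 °C. After recording, the contents of 2 neurons with like responses were drawn into the pipette and pooled, which gave 4 samples of temperature-responsive and 3 of non-responsive neurons. The labels name no drug or deletion in either group, and they tell the groups apart only by the response of the neurons to warming. The labels do not say which samples came from the same animal or slice, so that p-values measure the spread between these samples only.

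Some facts of all samples bear on every value below. Total counts were 1914497 to 2814360 in temperature-responsive and 3309361 to 5125280 in non-responsive samples, and the totals of the groups did not overlap. More genes had at least 1 count in the temperature-responsive samples (19852 to 21177) than in the non-responsive ones (17818 to 19820), again without overlap. Esr1 itself had 10 to 27 counts per sample, and 11 of 12 markers of medial preoptic neurons had at least 3 counts in every sample. Markers of striatal, cortical, thalamic, cerebellar, glial and endothelial cells were detected as well, and none was at 0 in every sample. All 7 markers of cortical and hippocampal excitatory neurons and all 6 of cortical interneurons had at least 3 counts in every sample. So did all 5 each of thalamic neurons, astrocytes, oligodendrocytes and microglia. Of the striatal, endothelial and cerebellar markers, 7 of 8, 4 of 5 and 3 of 6 did, respectively. The summed level of 5 endothelial markers was 67.9 to 173 CPM (counts over the sample's total, on a common scale) in temperature-responsive and 12.7 to 39.3 CPM in non-responsive samples, and that of 8 striatal markers was 215 to 268 CPM and 270 to 292 CPM, respectively. Of these endothelial markers 4 were called higher in the temperature-responsive samples. Markers of cortical and hippocampal excitatory neurons summed to 630 to 973 CPM, of cortical interneurons to 652 to 833 CPM and of thalamic neurons to 631 to 756 CPM. Oligodendrocyte markers summed to 2534 to 3661 CPM and astrocyte markers to 900 to 1223 CPM. All of these sums were above those of medial preoptic markers (363 to 499 CPM). The sums of microglial and cerebellar markers were lower (268 to 319 CPM and 44.6 to 76.8 CPM). The samples were stated to be female, yet Ddx3y, a Y-linked gene, had 684 to 1150 counts in each sample and Xist, which is transcribed from the inactive X chromosome, had 2 to 14. Ddx3y was at 315 to 387 CPM in temperature-responsive and 216 to 246 CPM in non-responsive samples, without overlap. The part of these differences in the results below was not tested.

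Lineage transcription factors are switched on in defined zones of the embryonic forebrain, and many stay on in the mature neuron, where they keep its transmitter and peptide genes in use. Dlx genes are homeobox genes of the subpallium, the preoptic area and parts of the hypothalamus, and they promote the GABAergic fate, including the genes for GABA synthesis. Nkx2-1 patterns the ventral forebrain and acts upstream of Lhx6, Isl1 marks striatal, cholinergic and several hypothalamic neuron classes, and Hmx2 and Hmx3 act in the ear and in the developing hypothalamus.

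Of the 9 factors, 7 passed the filter on low counts and only Dlx2 passed the test between the groups. Of all 14407 genes tested, 30.0% were called. Dlx2 was 2.27-fold higher in temperature-responsive than in non-responsive neurons (1.40 to 3.69, 95% confidence interval). Because each sample pools 2 neurons, more neurons that express Dlx2 and more of its RNA per neuron cannot be told apart. Markers of other cells were detected in every sample, and the part of RNA from such cells in the Dlx2 counts was not tested. Isl1, Dlx1 and Dlx6 had higher mean levels in temperature-responsive neurons but missed the threshold. Dlx5 and Lhx6 had lower means there, also without passing it, and the means of Nkx2-1 were nearly equal. Hmx2 and Hmx3 were close to the limit of detection in every sample.

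The genes lie at the following positions of the mouse genome mm10, as annotated by GENCODE M21. Dlx1 (chr2:71528113-71533981, plus strand) and Dlx2 (chr2:71543408-71546754, minus strand) are neighbours, 9.4 kb apart, in convergent orientation. Dlx6 (chr6:6863334-6868568, plus strand) and Dlx5 (chr6:6877805-6882085, minus strand) form a like pair with a gap of 9.2 kb. Hmx3 (chr7:131542867-131544925) and Hmx2 (chr7:131548773-131558014) follow each other on the plus strand with 3.8 kb between them. Lhx6 (chr2:36081953-36105408), Isl1 (chr13:116298281-116309689) and Nkx2-1 (chr12:56531958-56536908) are all on the minus strand. All 9 genes are protein coding, and the counts cover their exons. Of the exonic bases of Dlx1, 6.2% are shared with the antisense transcript Dlx1as, and of those of Dlx6, 4.4% are shared with Dlx6os2. For Lhx6 the shared part was 2.2%, and the other 6 genes shared no exonic base. Whether counting used strand is not given in the sources used here. The transcript that overlaps Lhx6, Gm27953, lies on the same strand, so strand could not separate those reads. Reads from these stretches therefore cannot be assigned to 1 gene with certainty.

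Promoter sequence from RefSeq (GRCm38.p6) was found for 7 of the 9 genes, and Dlx5 and Dlx6 had no entry. The 250 bases before the start site are given for Dlx2, the gene that differed, for Isl1, the factor with the highest level, and for Nkx2-1, whose group means were closest. They are written 5′ to 3′ along the strand of the gene, with the letters of a searched motif in capitals.

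Dlx2, chr2:71546755-71547004, minus strand: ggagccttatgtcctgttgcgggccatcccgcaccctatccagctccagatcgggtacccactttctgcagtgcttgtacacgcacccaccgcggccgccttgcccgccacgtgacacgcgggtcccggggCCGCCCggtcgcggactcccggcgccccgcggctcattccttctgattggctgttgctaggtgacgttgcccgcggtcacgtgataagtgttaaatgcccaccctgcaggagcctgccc

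Isl1, chr13:116309689-116309938, minus strand: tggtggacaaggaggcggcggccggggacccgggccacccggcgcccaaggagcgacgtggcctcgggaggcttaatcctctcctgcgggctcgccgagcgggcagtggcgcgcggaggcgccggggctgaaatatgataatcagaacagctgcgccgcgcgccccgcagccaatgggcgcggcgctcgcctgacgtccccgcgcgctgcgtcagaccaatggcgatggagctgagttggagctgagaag

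Nkx2-1, chr12:56536909-56537158, minus strand: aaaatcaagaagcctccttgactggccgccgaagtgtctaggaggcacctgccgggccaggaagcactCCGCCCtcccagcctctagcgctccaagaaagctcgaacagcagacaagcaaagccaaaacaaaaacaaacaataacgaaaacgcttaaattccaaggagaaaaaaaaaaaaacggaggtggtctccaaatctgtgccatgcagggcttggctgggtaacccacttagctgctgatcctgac

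The capitals mark a GC box in Dlx2 (119 bases upstream) and in Nkx2-1 (182 bases upstream), searched as GGGCGG or CCGCCC. The window of Isl1 held none of the motifs searched. A GC box was present in 32.74% of 32851 promoter windows of the same length. GC content was 66.4% for Dlx2, 71.2% for Isl1 and 50.8% for Nkx2-1, against a median of 52.4% over all windows. The number of CG dinucleotides was 24, 33 and 9, respectively, against a median of 6. Neither the homeodomain core TAATTA (4.84% of all windows) nor the NKX2-1 site core CAAGTG, read as CACTTG on the other strand (11.61%), occurred in the windows of these 7 genes. Hmx2 and Lhx6 had more than 1 window each. Part of the sequence searched lay in GENCODE exons, such as all 250 bases for Dlx1, 232 in a window of Hmx2 and 96 for Hmx3. Motif matches describe letters in a window and do not show that a factor binds there.

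Levels per length were compared first, as TPM (counts divided by exonic length, then scaled like CPM) over all 7 samples, since counts alone favour long genes. Isl1 had the highest level, 30.2 ± 5.86 TPM (SD, n = 7), and exceeded Dlx1 (18.4 ± 3.31 TPM) in 7 of 7 samples. Nkx2-1 (13.9 ± 4.25 TPM), Lhx6 (11.6 ± 4.00 TPM) and Dlx2 (11.5 ± 5.60 TPM) came next, in an order that held in only 4 of 7 samples for Nkx2-1 over Lhx6 and in 3 of 7 for Lhx6 over Dlx2. Dlx6 (7.45 ± 2.01 TPM) and Dlx5 (7.33 ± 1.82 TPM) were not separable, with Dlx6 higher in 4 of 7 samples. Hmx2 (1.45 ± 0.621 TPM) and Hmx3 (1.09 ± 1.45 TPM) were lowest, and Dlx5 exceeded Hmx2 in 7 of 7 samples. Only between Dlx5 and Hmx2 did the ranges of neighbours in this order not overlap. In rank, Isl1 stood at percentile 70.7 of all genes by mean TPM, Dlx1 at 62.2, Dlx5 at 48.8 and Hmx3 at 18.5. The 9 factors thus spanned percentiles 18.5 to 70.7 in abundance among all genes.

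**Figure D1:**
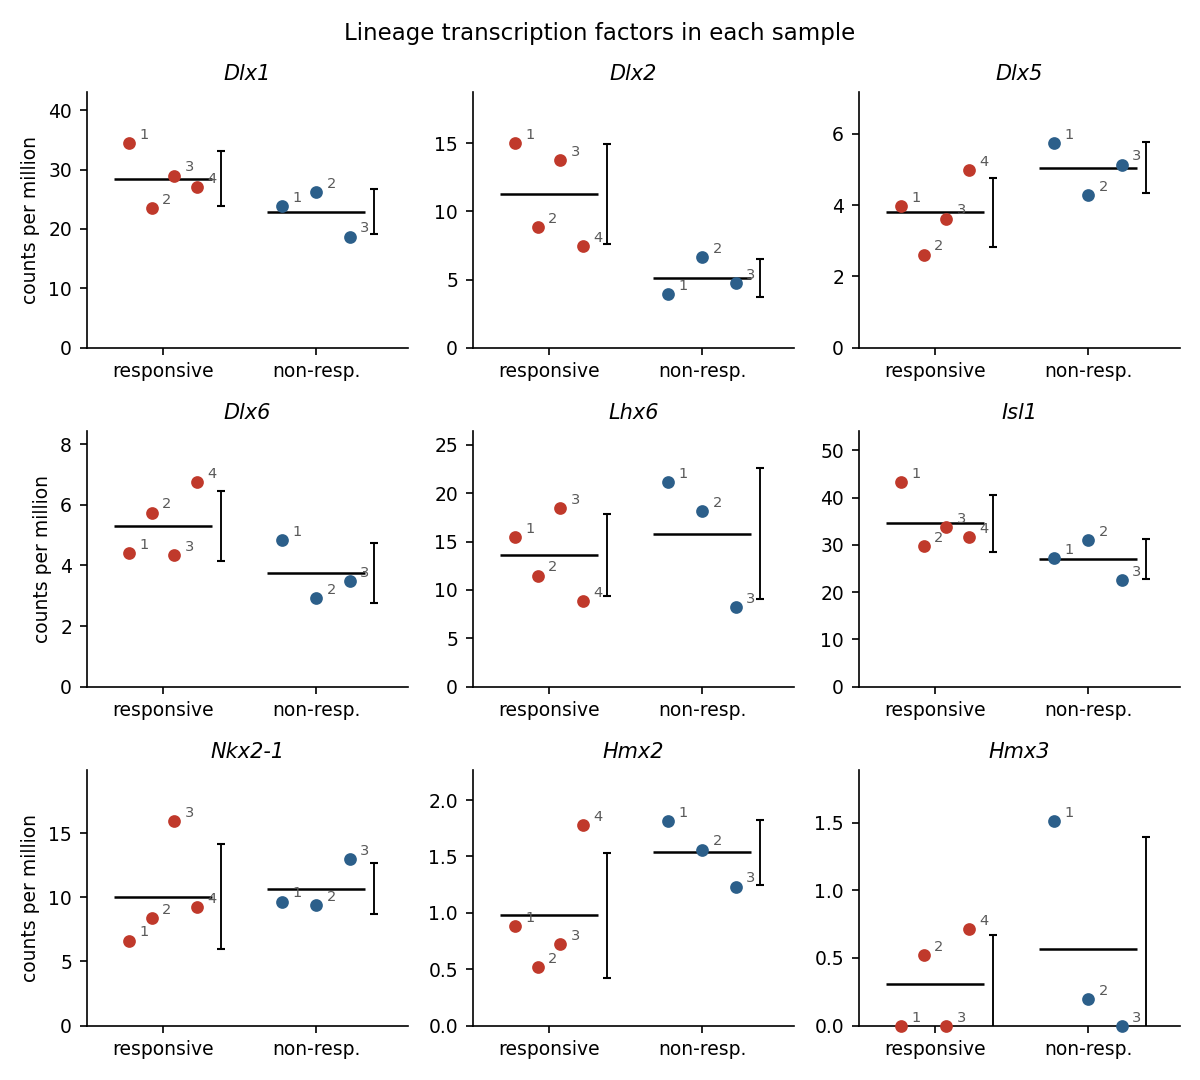
Level of each of the 9 factors in CPM (vertical axis, linear, from 0) in the 4 temperature-responsive (red) and 3 non-responsive (blue) samples. Digits give the replicate number, horizontal lines the group mean and bars 1 SD on each side, cut at 0 for Hmx3. The groups do not overlap for Dlx2 (7.46 to 15.01 against 3.93 to 6.63 CPM), and they overlap for the other 8 factors.

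Dlx1 and Dlx2 are the Dlx genes that act earliest in GABAergic progenitors. Dlx2 was at 15.01, 8.88, 13.8 and 7.46 CPM in temperature-responsive samples 1 to 4 and at 3.93, 6.63 and 4.73 CPM in non-responsive samples 1 to 3. Every temperature-responsive sample was above every non-responsive one, although the lowest (7.46 CPM) and the highest (6.63 CPM) of the respective groups were close. Groups without overlap were found for 35.9% of all genes tested. The group means were 11.3 ± 3.67 CPM (SD, n = 4) and 5.10 ± 1.39 CPM (SD, n = 3), on 13 to 38 counts in each sample. As a log2 fold change the difference was 1.18 (SE 0.339, 95% confidence interval 0.49 to 1.88) with a Benjamini-Hochberg adjusted p of 0.0107 over 14407 genes by the quasi-likelihood F test of edgeR.

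Dlx1, at 34.4, 23.5, 29.0 and 27.0 CPM in temperature-responsive and 23.9, 26.1 and 18.7 CPM in non-responsive samples, overlapped between the groups. Its means were 28.5 ± 4.57 CPM (SD, n = 4) and 22.9 ± 3.81 CPM (SD, n = 3). The log2 fold change was 0.38 (SE 0.189, interval -0.01 to 0.77), and the adjusted p was 0.13 by the Benjamini-Hochberg adjusted F test of edgeR. Temperature-responsive sample 1 was the highest and non-responsive sample 3 the lowest of the 7 for Dlx1. The same sample 1 was also the highest for Dlx2 and Isl1.

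Dlx5 and Dlx6 act later in the same lineage, as the neurons leave the cell cycle. Dlx5 had 9, 5, 10 and 14 counts in temperature-responsive and 19, 22 and 25 counts in non-responsive samples, that is 3.80 ± 0.975 CPM (SD, n = 4) and 5.06 ± 0.728 CPM (SD, n = 3). Dlx6 had 10, 11, 12 and 19 counts and 16, 15 and 17 counts, that is 5.31 ± 1.15 CPM (SD, n = 4) and 3.75 ± 0.980 CPM (SD, n = 3). Levels in CPM overlapped between the groups for both genes.
The log2 fold change was -0.32 for Dlx5 (SE 0.424, interval -1.20 to 0.55, adjusted p 0.594) and 0.58 for Dlx6 (SE 0.429, interval -0.30 to 1.46, adjusted p 0.323) by the Benjamini-Hochberg adjusted F test of edgeR. A rise of the size found for Dlx2 lay within the interval of Dlx6 and outside that of Dlx5, and a fall of that size lay within the interval of Dlx5.

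The estimates of the 4 Dlx genes did not all have the same sign, and convergent neighbours could be set against each other within a sample, where its total count cancels. These shares were chosen after the values had been seen. Dlx2 made up 30.4%, 27.4%, 32.2% and 21.6% of the summed counts of Dlx2 and Dlx1 in temperature-responsive samples and 14.1%, 20.2% and 20.2% in non-responsive samples. The groups did not overlap, but the exact 95% binomial intervals did, for example 13.9% to 31.2% in temperature-responsive sample 4 and 14.4% to 27.1% in non-responsive sample 2. The mean share was 27.9 ± 4.61% in the temperature-responsive (SD, n = 4) and 18.2 ± 3.51% in the non-responsive samples (SD, n = 3), and these differed by 9.73 percentage points (two-sided exact permutation test over the 35 assignments of the samples, p = 0.0571).

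Dlx5 made up 47.4%, 31.2%, 45.5% and 42.4% of the summed counts of Dlx5 and Dlx6 in temperature-responsive samples, against 54.3%, 59.5% and 59.5% in non-responsive samples. Each share rests on 16 to 42 counts, and its interval was wide, from 24.4% to 71.1% in temperature-responsive sample 1. The mean share was 41.6 ± 7.21% (SD, n = 4) against 57.8 ± 3.01% (SD, n = 3), which is a difference of -16.1 percentage points (exact permutation test, p = 0.0286, the smallest that 4 samples against 3 allow). Over the 2 gene pairs compared, the adjusted p was 0.0571 for both by Benjamini-Hochberg adjustment of the exact permutation tests. The difference for either pair did not pass the threshold after adjustment. Intervals on counts cover counting error only, since the reads carried no molecular identifiers.

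**Figure D2:**
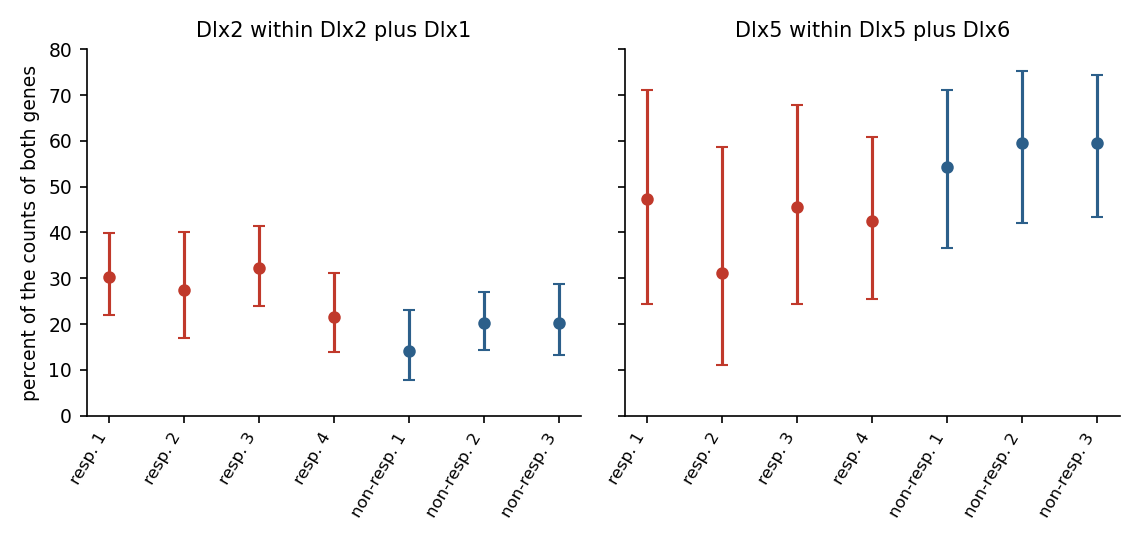
Share of Dlx2 in the counts of Dlx2 plus Dlx1 (left) and of Dlx5 in the counts of Dlx5 plus Dlx6 (right), in percent, for each temperature-responsive (red) and non-responsive (blue) sample. Bars are exact 95% binomial intervals. The points of the groups do not overlap in either panel (21.6% to 32.2% against 14.1% to 20.2%, and 31.2% to 47.4% against 54.3% to 59.5%), while many of the bars do.

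Lhx6 and Isl1 encode LIM-homeodomain factors. Isl1 was at 43.3, 29.8, 33.7 and 31.6 CPM in temperature-responsive and at 27.2, 31.0 and 22.6 CPM in non-responsive samples. The groups overlapped only through non-responsive sample 2, which was above temperature-responsive sample 2. With means of 34.6 ± 6.01 CPM (SD, n = 4) and 26.9 ± 4.21 CPM (SD, n = 3), the log2 fold change of Isl1 was 0.42 (SE 0.179, interval 0.05 to 0.79). The unadjusted p was 0.0264 and the adjusted p 0.0754 by the Benjamini-Hochberg adjusted F test of edgeR, so that the difference missed the threshold.

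Lhx6, which in the cortex is needed by the interneurons that make parvalbumin or somatostatin, was at 15.5, 11.5, 18.5 and 8.88 CPM in temperature-responsive and at 21.2, 18.1 and 8.22 CPM in non-responsive samples. The non-responsive samples held both the highest and the lowest level, with sample 3 the lowest of all, so the groups overlapped throughout. The log2 fold change was -0.14 (SE 0.301, interval -0.76 to 0.48, adjusted p 0.757 by the Benjamini-Hochberg adjusted F test of edgeR). Without non-responsive sample 1 the estimate was 0.12, and without temperature-responsive sample 4 it was 0.049, so its sign was not determined.

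Nkx2-1 was at 6.62, 8.36, 15.9 and 9.24 CPM in temperature-responsive and at 9.67, 9.37 and 12.9 CPM in non-responsive samples. Temperature-responsive samples held both the highest level, in sample 3, and the lowest, in sample 1. The means were 10.04 ± 4.08 CPM (SD, n = 4) and 10.7 ± 1.99 CPM (SD, n = 3). The log2 fold change of Nkx2-1 was -0.01 (SE 0.295, interval -0.62 to 0.59, adjusted p 0.978 by the Benjamini-Hochberg adjusted F test of edgeR), and its sign changed with several settings of the fit. As a ratio, the interval spanned 0.65-fold to 1.51-fold, and changes within it could not be told from none.

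Hmx2 and Hmx3, homeobox genes of the hypothalamus needed there by neurons that make growth hormone-releasing hormone, were too low for the fit. Hmx2 had 2, 1, 2 and 5 counts in temperature-responsive and 6, 8 and 6 counts in non-responsive samples. The sums were 10 and 20 counts, or 1.02 CPM (exact Poisson 95% interval 0.492 to 1.88) and 1.504 CPM (0.919 to 2.32). The intervals overlapped, and the difference of -0.49 in mean log2 CPM gave an exact permutation p of 0.143. Hmx3 had 0, 1, 0 and 2 counts and 5, 1 and 0 counts, respectively. That is 0.308 CPM (0.063 to 0.899) in temperature-responsive and 0.451 CPM (0.166 to 0.982) in non-responsive samples (difference in mean log2 CPM -0.23, exact permutation p = 0.743). A count of 0 allowed a level of up to 1.32 CPM in temperature-responsive sample 1, 1.09 CPM in sample 3 and 0.617 CPM in non-responsive sample 3, taking 3 counts as the limit. Differences in Hmx2 and Hmx3 were thus not detectable at this depth.

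**Figure D3:**
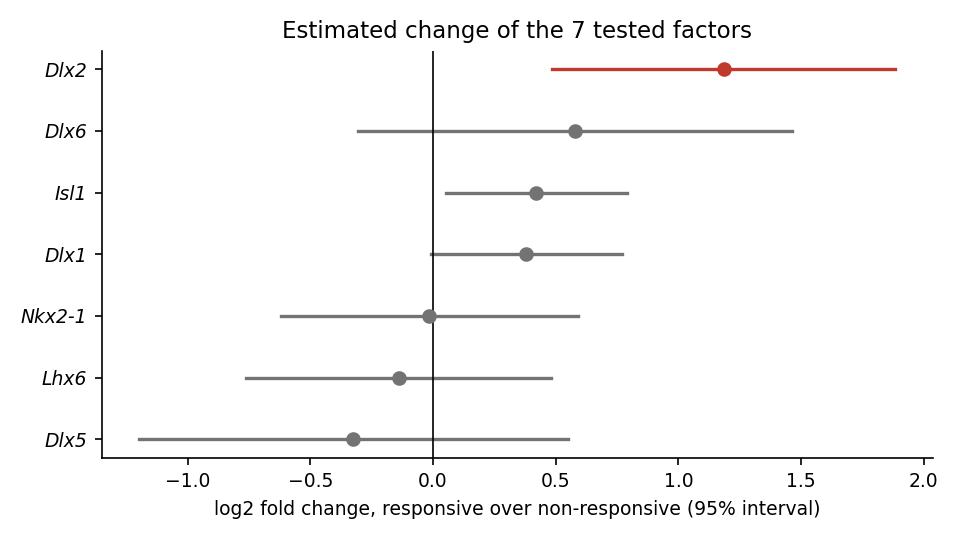
Estimated log2 fold change (horizontal axis, temperature-responsive over non-responsive) of the 7 factors tested, with 95% confidence intervals from edgeR. The interval of Dlx2 (0.49 to 1.88, red) is the only one whose gene passed the adjusted threshold, that of Isl1 (0.05 to 0.79) lies just above 0, and the other 5 include 0.

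Among the 7 factors tested, 1 was called, and it was higher in temperature-responsive neurons. Of all genes tested, 15.1% were called as higher and 30.0% in either direction, so the count of factors is not above the background. The estimate was above 0 for 4 factors and below 0 for 3, with a median log2 fold change of 0.38 beside 0.007 over all genes tested. An unadjusted p under 0.05 was found for 2 factors (Dlx2 and Isl1), against 41.3% of all genes tested. By abundance, 17.8% of genes were called under 5 CPM, the bin of Dlx5 and Dlx6, 15.5% at 5 to 20 CPM, the bin of Dlx2, Lhx6 and Nkx2-1, 27.6% at 20 to 50 CPM, the bin of Dlx1 and Isl1, and 43.7% above 50 CPM. The median SE fell from 0.513 on the log2 scale under 5 CPM to 0.114 above 50 CPM. Of all calls, 50.3% were higher in temperature-responsive neurons, and this share was 31.5% after an offset for GC content, to which fold changes were related over all genes (Spearman's rho -0.342 across 14287 genes, which are not independent replicates).

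Dlx2 kept its direction under all 18 alternative settings and was called in 17 of them, and its adjusted p ranged from 0.0045 to 0.145. Leaving out each sample in turn gave log2 fold changes of 1.00 to 1.42, with adjusted p-values of 0.00604 to 0.0433 by the Benjamini-Hochberg adjusted F test of edgeR. The exception was a fit with the number of detected genes as a covariate, in which the log2 fold change was 1.85 and the adjusted p 0.145. In that fit only 1 of all 14407 genes was called, and the covariate did not overlap between the groups.

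Close relatives and antisense transcripts of the factors were read in the same way. Dlx6os1, the antisense RNA also known as Evf2 that spans Dlx6, was at 22.1 to 23.5 CPM in temperature-responsive and at 10.5 to 24.6 CPM in non-responsive samples, with a log2 fold change of 0.38 (adjusted p 0.223, the Benjamini-Hochberg adjusted F test of edgeR). Dlx1as had 10 to 33 counts per sample, with an estimated log2 fold change of 0.27 (adjusted p 0.624 by the same edgeR test), which was -0.19 without temperature-responsive sample 2. Nkx2-2, a homeobox gene of the ventral neural tube and of oligodendrocyte precursors, had an estimated log2 fold change of -0.08 (adjusted p 0.84 by the same edgeR test).
Dlx3 (1 to 4 counts), Dlx4 (1 to 9), Lhx8 (0 to 5), Isl2 (0 to 5) and Hmx1 (0 to 3) were too low to be tested. Nkx2-4, the close paralog of Nkx2-1, was also not tested, at 2, 1, 2 and 3 counts in temperature-responsive and 7, 6 and 13 counts in non-responsive samples. Its levels did not overlap, with means of 0.799 ± 0.231 CPM (SD, n = 4) and 1.99 ± 0.759 CPM (SD, n = 3), both near the limit of detection.

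Of 3 genes for the synthesis and vesicular loading of GABA, 1 passed the test. Beside this, 30.0% of all genes tested were called, and 43.7% of those above 50 CPM, the bin of Gad1 and Gad2. Gad1 had an estimated log2 fold change of 0.48 (adjusted p 0.00767), Gad2 of 0.31 (adjusted p 0.0837) and the vesicular transporter gene Slc32a1 of 0.003 (adjusted p 0.992) by the Benjamini-Hochberg adjusted F test of edgeR.

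Other factors of the GABAergic lineage were taken from a list of 33, of which 27 were tested. In it, temperature-responsive neurons had 9 genes higher and 1 lower, or 37.0% called beside 30.0% of all genes, with a median log2 fold change of 0.27. The count of 10 fell to 6 without temperature-responsive sample 2 or non-responsive sample 2, to 4 without non-responsive sample 3, and to 6 with the GC offset. Those higher included Ebf1, Maf, Zeb2, Npas3, Zfhx3, Foxp2, Pbx3 and Nr2f2, and the lower one was Nkx6-2, which is also a gene of oligodendrocytes.

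Maf, a factor of interneurons from the medial ganglionic eminence, was at 50.8, 49.1, 34.04 and 39.1 CPM in temperature-responsive and 29.6, 24.4 and 20.3 CPM in non-responsive samples (log2 fold change 0.87, adjusted p 0.00137). The groups did not overlap, and samples 1 and 2 were the highest. Zeb2, which in that zone directs migrating interneurons, had an estimated log2 fold change of 0.58 (adjusted p 0.000489), and Npas3 of 0.50 (adjusted p 0.00201), all by the Benjamini-Hochberg adjusted F test of edgeR. With a GC offset the log2 fold changes were 0.74 for Maf, 0.28 for Zeb2 and 0.365 for Npas3 (adjusted p 0.00404, 0.0402 and 0.0201, the same edgeR test). The part of RNA from other cells in the values of these genes was not tested.
Ebf1, a factor of striatal neurons that is also expressed in cells of the vessel wall, was at 18.5, 21.9, 42.7 and 19.5 CPM in temperature-responsive and 15.4, 13.1 and 13.98 CPM in non-responsive samples (log2 fold change 0.94, adjusted p 0.00741). Without temperature-responsive sample 3 it was 0.57 (adjusted p 0.072, the same edgeR test). That sample also had the highest summed level of endothelial markers, 173 CPM against 67.9 to 82.1 CPM in the other temperature-responsive samples, and the part of these cells in the value of Ebf1 was not tested.

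Sp8, a zinc finger factor of interneurons from the lateral and caudal ganglionic eminences, was chosen after its values had been seen. It had 127 counts in temperature-responsive sample 1, 15 to 30 in the other 3, and 9, 16 and 16 in the non-responsive samples. In CPM the groups did not overlap (56.1, 9.40, 10.9 and 5.33 against 2.72, 3.12 and 3.29), and sample 1 was far above all others. The log2 fold change was 2.78 (SE 1.05, adjusted p 0.105), and without sample 1 it was 1.502 with an adjusted p of 0.0132 by the Benjamini-Hochberg adjusted F test of edgeR. Without temperature-responsive sample 4 it also passed (3.13, adjusted p 0.037, edgeR).

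**Figure D4:**
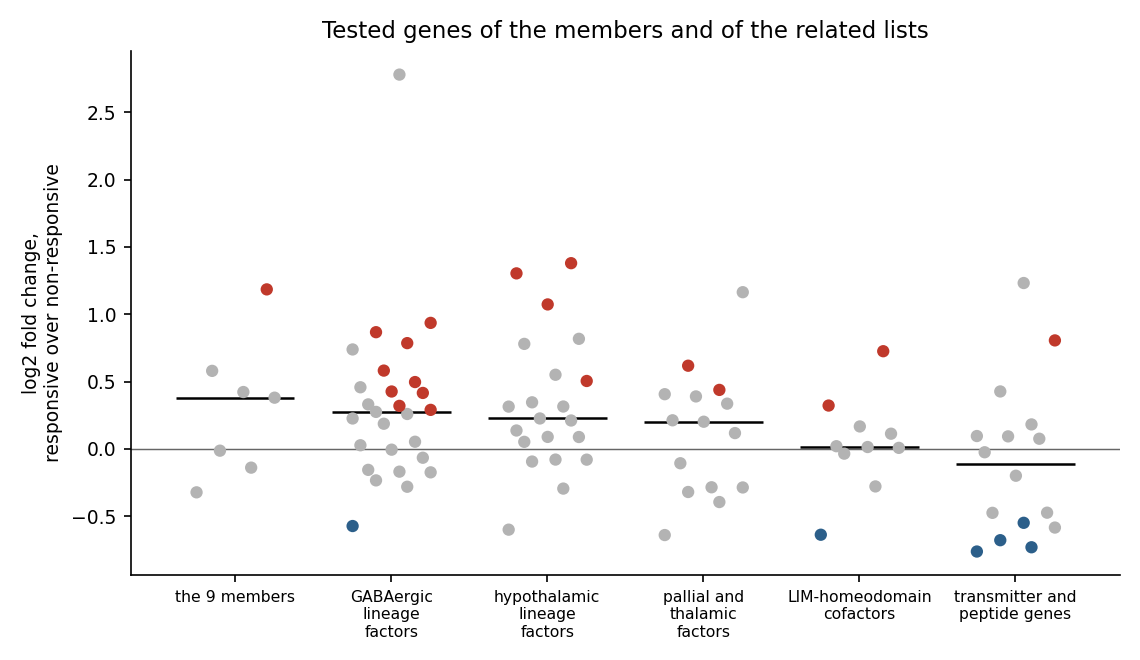
Log2 fold change (vertical axis, temperature-responsive over non-responsive) of the tested genes among the 9 factors and in 5 lists of related genes, 1 point per gene. Red points are genes called higher and blue points genes called lower, grey points did not pass, and lines are list medians (0.38, 0.27, 0.23, 0.20, 0.016 and -0.11 from left to right). The grey point at 2.78 is Sp8.

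Of 35 factors of hypothalamic lineages, 21 were tested. In temperature-responsive neurons 4 were higher and none lower (19.0% called beside 30.0% of all genes tested, median log2 fold change 0.23). These were Prdm12, Zic1, Tbx3 and Pou3f2, and the count was 1 without non-responsive sample 3 and 2 without temperature-responsive sample 2 or 3. Zic1, a zinc finger factor of the septum and the preoptic area that is also expressed in the meninges, was at 10.6, 12.01, 17.7 and 13.9 CPM in temperature-responsive and 8.76, 6.24 and 2.67 CPM in non-responsive samples (log2 fold change 1.30, adjusted p 0.00562, the Benjamini-Hochberg adjusted F test of edgeR). Prdm12, a factor of proopiomelanocortin neurons, had 6 to 13 counts per sample, with an estimated log2 fold change of 1.38 (adjusted p 0.0459), and it lost its call in all 4 fits without 1 sample in which it was tested (adjusted p 0.0538 to 0.133, the same edgeR test). In the other 3 such fits it did not pass the filter on low counts. Pou3f2, which specifies neuroendocrine neurons, had an estimated log2 fold change of 0.50 (adjusted p 0.00807), or 0.35 without non-responsive sample 3 (adjusted p 0.0666, the same edgeR test).

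Of 17 factors of pallial and thalamic neurons, classes that lie outside the MPA, 15 were tested. Of these 2 were higher, among them Bhlhe22 (13.3% called beside 30.0% of all genes tested, median log2 fold change 0.20). This count was 1 without temperature-responsive sample 2, non-responsive sample 2 or non-responsive sample 3, and 4 without temperature-responsive sample 1 or non-responsive sample 1.

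Lhx6 and Isl1 act in complexes with LIM cofactors, and all 10 genes of that list were tested. Lmo2 and Ssbp2 were higher and Ldb1 lower (30.0% called, the same share as over all genes tested, median log2 fold change 0.016). Ldb1, the adaptor that joins LIM-homeodomain factors, was at 33.6, 23.5, 41.3 and 33.0 CPM in temperature-responsive and 49.6, 54.8 and 56.9 CPM in non-responsive samples, without overlap (log2 fold change -0.64, adjusted p 0.00401). Lmo2, a LIM-only protein that binds Ldb1 and is also expressed in endothelial cells, had an estimated log2 fold change of 0.73 (adjusted p 0.00245, the Benjamini-Hochberg adjusted F test of edgeR for both).

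Transmitter and peptide genes of neuron classes that use these factors formed a list of 18, of which 16 were tested. Only Ackr3, a chemokine receptor of migrating interneurons, was higher, whereas Gal, Penk, Pdyn and Th were lower (31.2% called beside 30.0% of all genes tested, median log2 fold change -0.11). This count of 5 was 3 without temperature-responsive sample 1 or non-responsive sample 2 and 1 without non-responsive sample 3. Without temperature-responsive sample 3 or non-responsive sample 3, no gene of the list was called higher. Ackr3 overlapped between the groups (18.1 to 43.1 against 13.9 to 19.9 CPM). Its highest level was in temperature-responsive sample 3, the sample highest in endothelial markers, and the part of these cells was not tested. Penk, which encodes the enkephalin precursor, was at 81.7, 113.9, 118 and 140.4 CPM in temperature-responsive and 171.6, 190.6 and 206 CPM in non-responsive samples (log2 fold change -0.68, adjusted p 0.000365). Pdyn, the dynorphin precursor gene, had an estimated log2 fold change of -0.76 (adjusted p 0.0159), which was -0.34 without non-responsive sample 3 (adjusted p 0.151) and -0.67 without temperature-responsive sample 1 (adjusted p 0.0596, the Benjamini-Hochberg adjusted F test of edgeR for all). The summed level of striatal markers was also lower in temperature-responsive samples, without overlap (215 to 268 against 270 to 292 CPM). The part of striatal cells in the values of Penk and Pdyn was not tested.

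The genes whose levels were most like the mean of the 4 Dlx genes over the 7 samples were Snhg5 (Pearson's r = 0.995 on log2 CPM), Ammecr1l (r = 0.988) and Mkks (r = 0.983). With 7 points that share their libraries, 269 of 14400 genes reached an r over 0.9, so these names are given as a description.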

How the data were processed

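RNA from 4 temperature-responsive and 3 non-responsive samples of 2 ERα-ZsGreen neurons each was amplified (SMART-seq V4) and sequenced in 1 lane. The authors used STAR on mm10, took out PCR duplicates with RmDup, and deposited the raw htseq-count counts of each gene symbol. The submitters' processing notes name FastQC 0.72, STAR 2.6.0 and HTSeq 0.9.1. Without molecular identifiers, taking out duplicates may also have dropped separate molecules of abundant genes. The annotation and the strand setting are not given in the sources used here.

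Genes reaching 10 counts in 3 or more samples, 14407 in all, were compared with edgeR 4.0.16 in R 4.3.3 (robust two-sided quasi-likelihood test, TMM). P-values were adjusted by Benjamini-Hochberg and called under 0.05. The study used DESeq2 on the same groups, and DESeq2 1.42.0 and limma 3.58.1 served as alternatives. GC offsets were made with mgcv 1.9.3. The fit was tested on simulated data. Standard errors were derived from the fold change and its F statistic. CPM are counts over the sample total (1914497 to 5125280), and TPM used exonic lengths of GENCODE M21, in which 98.3% of symbols were found. A floor of 3 counts was 0.585 to 1.57 CPM. Log2 CPM of genes too low for the fit used a prior count of 2 scaled to depth. Exact permutation tests used SciPy 1.17.1 and Python 3.11.15. Pairs of samples of the same group differed by more than counting noise (chi-square per degree of freedom 2.02 to 5.01) and were counted separately.

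The 9 genes, the related lists and the tests were chosen with earlier results of these data known. Named were all 9 factors, their paralogs and antisense transcripts, the 3 genes most alike to the Dlx mean, and from each list up to 5 called rises and 5 called falls without overlap between the groups. Further called genes of the lists were named as well, among them Zfhx3, Foxp2, Nr2f2, Gal and Th, whose levels overlapped between the groups. Some genes of the lists are not reported here. Sp8 and the shares within gene pairs were added after their values were seen. Groups and replicate numbers came from the labels. The 18 alternatives comprised DESeq2, limma-voom, other scalings and filters, downsampling, a covariate for detected genes, GC offsets, a replicate block and fits without 1 sample.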

Additional observations from a re-analysis of the deposited data

Results flagged for a closer look

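Of 32 measures checked for a sample far from the others among the 4 temperature-responsive samples, 3 had a gap to the nearest sample above the 95% limit of Dixon's test, which by chance marks about 1 in 20 such groups. Sp8 in sample 1 was at 56.1 CPM against 5.33 to 10.9 CPM in the other samples (gap 0.891 of the range). Ebf1 in sample 3 was at 42.7 CPM against 18.5 to 21.9 CPM (0.86). Hmx1 in sample 2 had 2 counts (1.04 CPM) and was at 0 in the other samples (gap 1.0 of the range), which is below the floor of 3 counts. None of the 9 factors had such a sample, and the causes were not tested.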

How the results depend on the processing

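Dlx2 was called in 17 of 18 alternatives and stayed higher in all 18. Isl1 and Dlx1 stayed above 0 and uncalled (adjusted p 0.0551 to 0.446 and 0.103 to 0.601), as did Dlx6, and Dlx5 stayed below 0 in the 17 alternatives that tested it. With the number of detected genes as a covariate, which did not overlap between the groups, 0 of the 9 factors and 0 genes of each of the 5 lists were called, and 1 of all genes (2062 at an unadjusted p under 0.05, edgeR). In that fit the log2 fold change was 0.32 for Nkx2-1, -0.32 for Dlx1as, -0.14 for Dlx6os1 and 0.063 for Nkx2-2. Lhx6 changed sign with the replicate number as a block (0.10) and with the block and a GC offset (0.18). Nkx2-1 changed sign with at least 10 counts in every sample (0.013), downsampling (0.16), a GC offset (0.038) and the block with a GC offset (0.073), and Nkx2-2 with downsampling (0.019). The causes of these changes were not tested.

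The number of calls in the GABAergic list was 6 with a GC offset, in the hypothalamic list 2 with the block and a GC offset, and in the transmitter and peptide list 3 with limma-voom. In the pallial and thalamic list it was 4 with all genes of at least 1 count, with a GC offset, with the block and with both. Omitting 1 sample at a time gave 2620 to 4583 calls over all genes, 4 to 11 in the GABAergic, 1 to 5 in the hypothalamic, 1 to 4 in the pallial and thalamic and 1 to 6 in the transmitter and peptide list. It gave log2 fold changes of -0.46 to 0.12 for Lhx6, -0.33 to 0.15 for Nkx2-1 and -0.60 to 0.30 for Hmx3, whose sign turned without non-responsive sample 1. For Dlx1as it gave -0.19, without temperature-responsive sample 2, to 0.45. The share of calls that were higher was 50.3%, against 31.5% with a GC offset, 34.7% with the block and a GC offset and 40.8% with library size only. Sp8 passed the threshold with DESeq2 (adjusted p 0.0121), with the block (0.000104), with the block and a GC offset (0.000378) and without temperature-responsive sample 1 or 4 (0.0132 and 0.037). Pou3f2 lost its call with a GC offset (adjusted p 0.0879) and with the block and a GC offset (0.0984), Pdyn with limma-voom (0.0511), and Prdm12 with DESeq2 (0.058), library size only (0.0545), all genes of at least 1 count (0.099), the block (0.115) and the block with a GC offset (0.0977).

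Same-numbered samples of the groups did not deviate together (r -0.128, -0.062 and 0.032 over genes), so the replicate numbers were not taken as pairs. With the replicate block 1 of the 9 factors was called, Dlx2 (log2 fold change 1.36, adjusted p 0.0104, edgeR), and 4124 genes in all. Depth limits Hmx2 and Hmx3 most, with 30 and 9 counts over all samples, and the 100 and 104 counts of Dlx6 and Dlx5 left the widest intervals among the 7 factors tested.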
